A study of Mus musculus with 9 samples.

Results

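Transcripts of Vhl and of the 3 genes that encode HIF alpha subunits, Hif1a, Epas1 and Hif3a, were followed in 9 RNA sequencing libraries of mouse kidney. These 4 genes were chosen by name, all 4 were found among the 14052 genes counted, and all 4 were among the 7020 genes with enough counts to test. The tumour group holds 5 areas (R2 to R5, and L4) of VhlF/F Pbrm1F/F Ksp-Cre mice, whose background mixes the strains C57BL/6, BALB/c and 129. There Cre recombinase is driven by Ksp, which is the Cdh16 promoter and is active in kidney tubule epithelium, so deletion is directed to part of the cells of the tissue and the remaining cells keep both genes. The normal group holds 4 areas (R1, R2, L1 and L2) of C57BL/6 mice that were wild-type. All mice were about 1 year old, were fed a normal diet and received no treatment. Every tumour area carries both floxed genes, so an effect of Vhl and one of Pbrm1, the strain or the tumour state cannot be told apart. Only the titles of the normal areas name the kidney cortex, so a difference in the region sampled cannot be told apart either. The sample descriptions give the tumour areas 1 common number and the normal areas a second one. If such a number stands for a mouse, each group is a single animal, and p-values measure only the spread between areas.

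VHL is the substrate-binding subunit of a ubiquitin ligase. With oxygen present, prolyl hydroxylases of the EGLN family modify prolines in the HIF alpha proteins, VHL binds the hydroxylated proline, and the HIF alpha protein is degraded. Without VHL, the proteins accumulate, pair with ARNT and switch on genes of glycolysis, vessel growth and iron handling. This control acts on the proteins, and the libraries measured only the transcripts. In the kidney, HIF1A is best known from tubule epithelium and EPAS1 from endothelial and interstitial cells. HIF3A exists in several splice forms, some of which restrain the other HIF alpha proteins, and its gene is itself induced by HIF.

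The stretch that VHL reads was located in the coding sequence of each HIF alpha gene, since it is the feature that ties these transcripts to Vhl. The pattern searched was the codons for leucine, 2 residues of any kind, leucine, alanine and proline. It occurred 2 times in the longest coding transcript of Hif1a, 2 times in that of Epas1 and 1 time in that of Hif3a. The 5 stretches are given 5′ to 3′ on the coding strand, with the codons of the pattern in capitals and the proline codon last among them.
Hif1a, proline codon 402: gatgctCTCACTCTGCTGGCTCCAgctgcc
Hif1a, proline codon 577: ttagatTTGGAGATGCTGGCTCCCtatatc
Epas1, proline codon 405: gaggaaCTGGCCCAGTTGGCCCCCacccca
Epas1, proline codon 530: ctggatTTGGAGACCTTGGCACCCtacatc
Hif3a, proline codon 489: ctggacTTGGAGATGCTGGCCCCCtacatc

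In GENCODE M21 (build GRCm38) the Hif1a stretches lie at chr12:73939683-73939712 in exon 9 of 15 and at chr12:73941970-73941999 in exon 12 of 15, on the plus strand. Those of Epas1 lie at chr17:86824564-86824593 in exon 9 of 16 and at chr17:86827507-86827536 in exon 12 of 16, also on the plus strand. The Hif3a stretch lies at chr7:17041199-17041228 in exon 12 of 15, on the minus strand. The second site of Hif1a and the site of Hif3a shared 17 of 18 bases over the capitals, and the second site of Epas1 shared 14 of 18 with each of them. The pattern was present in 2 of 3 coding transcripts of Hif1a, in 1 of 1 of Epas1 and in 2 of 4 of Hif3a. Counts per gene do not separate these transcripts, so which Hif3a form was measured is unknown.

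Counted reads per library ran from 5143527 to 8250261. Levels are given as CPM (counts relative to the size of the library), scaled by edgeR's TMM factors, with the SD over 5 tumour or 4 normal areas. Log2 fold changes are tumour over normal with the standard error of edgeR's quasi-likelihood fit, and p-values from that fit are adjusted by Benjamini-Hochberg over all 7020 tested genes. The contrast was broad: 74.6% of tested genes were called at an adjusted p under 0.05, 39.3% as higher and 35.3% as lower in tumour, and the CPM of the groups did not overlap for 67.8%. A call alone therefore sets no member apart, and the sizes are read against a median log2 fold change of 0.06 over all tested genes. Genes that nearly every cell uses, such as Gapdh and Pgk1, were listed at 0 in every library, so a 0 does not show a silent gene. Reads may also cover only part of a gene, and levels are not compared between members.

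Vhl, Hif1a and Epas1 transcripts were lower in the tumour areas, at 57.7%, 47.1% and 59.2% of the normal mean. Hif3a transcripts were higher, at 224% of the normal mean. For all 4 genes every tumour area lay outside the range of the normal areas. All 4 were called by edgeR, 3 of them as lower and 1 as higher. In these bulk samples fewer cells of a type and less RNA per cell cannot be told apart.

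**Figure D1:**
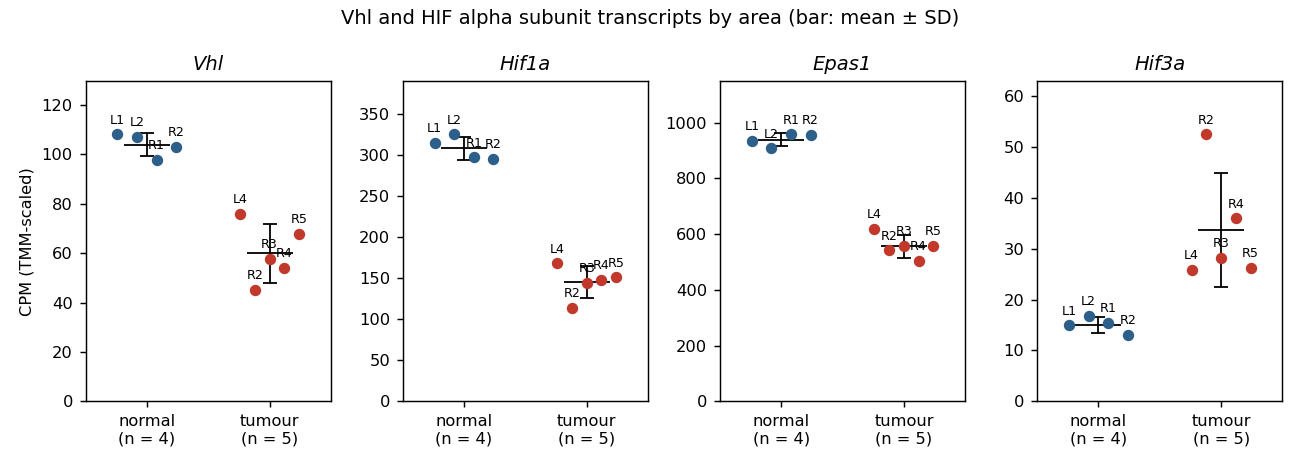
TMM-scaled CPM of Vhl, Hif1a, Epas1 and Hif3a in the 4 normal (blue) and 5 tumour (red) areas, each point 1 library labelled by its area, bars the mean ± SD, and each gene on its own axis from 0. No tumour point lies within the normal range of its gene: Vhl, Hif1a and Epas1 lie below it and Hif3a above it.

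Vhl (ENSMUSG00000033933), the gene targeted by Cre, was measured at 108 (L1), 107 (L2), 97.7 (R1) and 103 (R2) CPM in the normal areas. In the tumour areas it was measured at 75.7 (L4), 45.1 (R2), 57.6 (R3), 53.9 (R4) and 67.7 (R5) CPM. The normal areas were close to each other, and the tumour areas were all lower and more widely spread, with L4 the highest and R2 the lowest. The mean fell from 104 ± 4.69 (SD, n = 4) to 60.0 ± 12 CPM (SD, n = 5), a log2 fold change of -0.79 ± 0.13 with an edgeR adjusted p of 0.000248. Of all tested genes, 17% had a lower log2 fold change.

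The Vhl value rests on 269 to 781 counts per library over the whole gene. In GENCODE M21, Vhl has 3 exons in its longest transcript, of 420, 123 and 2249 bases. The last exon thus holds 80.6% of the transcript, and exons 1 and 2 hold 15% and 4.41%. Which exon Cre removes is not given in the sources used here, and reads from a transcript that lacks 1 exon could still be counted as Vhl. The counts therefore give the RNA left from the locus, not the share of intact transcript.

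Hif1a (ENSMUSG00000021109), which encodes the HIF alpha subunit best known for inducing glycolysis, had the largest decrease of the 4. It was measured at 315 (L1), 325 (L2), 297 (R1) and 295 (R2) CPM in the normal areas. The tumour areas held 168 (L4), 114 (R2), 144 (R3), 148 (R4) and 151 (R5) CPM. The highest tumour area, L4, was well under the lowest normal area, and R2 was the lowest. The mean fell from 308 ± 14.5 to 145 ± 19.4 CPM, a log2 fold change of -1.09 ± 0.09 with an edgeR adjusted p of 2.84e-06. Of all tested genes, 11.1% had a lower log2 fold change. Of the exonic bases of Hif1a, 8.11% overlap 2 other annotated genes, Gm15283 on the opposite strand and Gm49321 on the same strand. The library kit does not mark strand, so reads over those bases cannot be told apart.

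Epas1 (ENSMUSG00000024140) encodes the HIF alpha subunit also called HIF2A, which is known as the driver of kidney cancers without VHL. It was measured at 936 (L1), 908 (L2), 958 (R1) and 956 (R2) CPM in the normal areas. The tumour areas held 618 (L4), 542 (R2), 559 (R3), 503 (R4) and 558 (R5) CPM. Epas1 was the most even of the members, with L4 again the highest tumour area but R4, not R2, the lowest. The mean fell from 939.8 ± 23.1 to 556 ± 41.5 CPM, a log2 fold change of -0.76 ± 0.06 with an edgeR adjusted p of 2.5e-06. Of all tested genes, 18% had a lower log2 fold change.

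Hif3a (ENSMUSG00000004328) moved the other way. It was measured at 14.9 (L1), 16.8 (L2), 15.4 (R1) and 13.0 (R2) CPM in the normal areas. The tumour areas held 25.8 (L4), 52.4 (R2), 28.1 (R3), 35.9 (R4) and 26.2 (R5) CPM. All tumour areas were higher, R2 stood highest, and L4 and R5 were the lowest. The mean rose from 15 ± 1.58 to 33.7 ± 11.2 CPM, a log2 fold change of 1.16 ± 0.22 with an edgeR adjusted p of 0.000716. The counts behind it, 64 to 312 per library, were the fewest of the 4. Of all tested genes, 15.1% had a higher log2 fold change. Without tumour area R2 the log2 fold change was 0.95, with an edgeR adjusted p of 0.000166.

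Tested singly, each of the 4 genes gave a 2-sided exact permutation p of 0.00794, the smallest that splits of 5 against 4 libraries can give. These p-values are not adjusted. They largely restate that the groups did not overlap, which also held for 67.8% of all tested genes.

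Among the tumour areas the members spread by different amounts. The coefficient of variation over the 5 tumour areas was 33.3% for Hif3a, 19.9% for Vhl, 13.4% for Hif1a and 7.46% for Epas1. Over the 4 normal areas it was 10.5%, 4.51%, 4.71% and 2.46% in the same order of genes. For Hif3a, 9.85% of 1107 tested genes within 1.5-fold of its tumour CPM varied more among the tumour areas, and for Epas1 71.2% of 364 did. The Hif3a spread rests on area R2: without it the coefficient was 16.2% for Hif3a, 15.6% for Vhl, 7.0% for Hif1a and 8.41% for Epas1, and 39.3% of 1065 genes within 1.5-fold varied more than Hif3a. The order of the areas differed between genes. Area R2 had the least Vhl (43.4% of the normal mean) and the least Hif1a (37.2%), and the most Hif3a (348%). Area L4 had the most Vhl (72.8%), Hif1a (54.6%) and Epas1 (65.8%), and the least Hif3a (171%). Each area is 1 library, so differences between areas have no test.

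**Figure D2:**
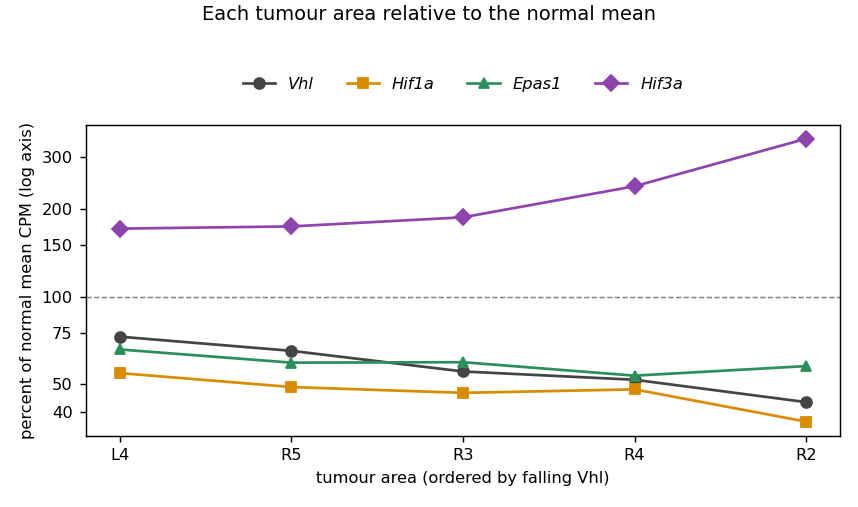
CPM of each member in each tumour area as a percent of its normal mean (log axis, dashed line at 100%), with areas ordered from the highest to the lowest Vhl. From L4 to R2 Vhl goes from 72.8% to 43.4% and Hif3a from 171% to 348%, while Epas1 stays between 53.5% and 65.8%.

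The members were next compared with each other inside each library, since a ratio of counts does not depend on how libraries are scaled. Each of the 6 ratios was tested by a 2-sided exact permutation of the group labels, with p-values adjusted over the 6. The log2 ratio of Hif3a to Vhl was -2.79 ± 0.16 in the normal and -0.86 ± 0.71 in the tumour areas, a difference of 1.92 (exact permutation adjusted p = 0.0159). That of Hif3a to Hif1a differed by 2.20 and that of Hif3a to Epas1 by 1.87, with the same adjusted p by the exact permutation test. For these 3 ratios the groups did not overlap, and R2 had the highest value. Every tumour area lay above the normal range for Hif3a and below it for the other genes, so this separation followed from the levels already given. The p-values of these 3 ratios therefore add no further support. How often other pairs of genes separate the groups was not computed.

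Among the 3 genes that fell, Hif1a fell by more than the others. The log2 ratio of Hif1a to Vhl was 1.54 (L1), 1.61 (L2), 1.60 (R1) and 1.51 (R2) in the normal areas. In the tumour areas it was 1.15 (L4), 1.34 (R2), 1.32 (R3), 1.46 (R4) and 1.15 (R5). The tumour areas were all lower, by 0.28 on average on the log2 scale (difference -0.28, exact permutation adjusted p = 0.019). The log2 ratio of Epas1 to Hif1a was 1.57 (L1), 1.48 (L2), 1.69 (R1) and 1.70 (R2) in the normal areas. It was 1.88 (L4), 2.24 (R2), 1.96 (R3), 1.77 (R4) and 1.89 (R5) among tumour areas. All tumour areas were higher, with R4 close to the normal range (difference 0.34, exact permutation adjusted p = 0.019). Both calls were lost without normal area L2 (exact permutation adjusted p = 0.0643 for each), and that of Hif1a to Vhl also without normal area R1 (0.0643).

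No difference was detected in the log2 ratio of Epas1 to Vhl, at 3.18 ± 0.09 in the normal and 3.23 ± 0.23 in the tumour areas. The difference was 0.06 (exact permutation adjusted p = 0.714) and the groups overlapped. It does not show that Epas1 and Vhl fell alike: over the tumour areas the ratio ran from 3.03 in L4 to 3.58 in R2.

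**Figure D3:**
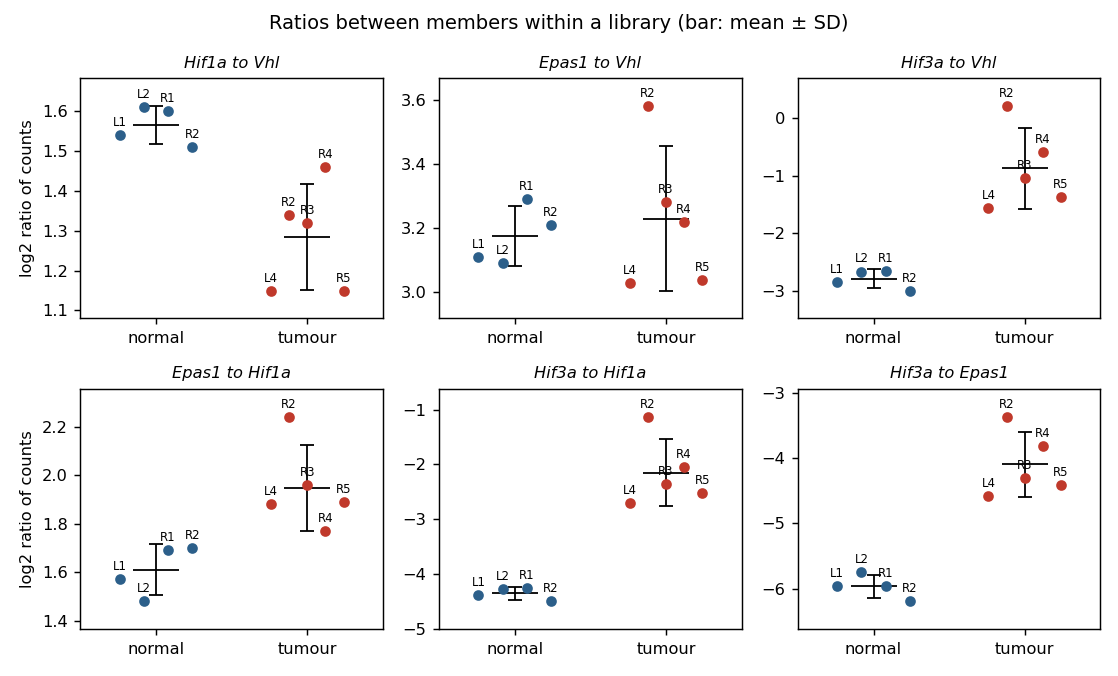
Log2 ratio of the counts of each pair of members in the 4 normal (blue) and 5 tumour (red) areas, bars the mean ± SD, each panel on its own axis. The groups overlap only for Epas1 to Vhl, and the 3 ratios with Hif3a differ by 1.87 to 2.20 between the groups. Of single tested genes 67.8% did not overlap, and the share over other pairs of genes was not computed.

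Cell type markers moved between the groups along with the members. The summed CPM of 11 endothelial markers was 1384 to 1422 in the normal and 986 to 1298 in the tumour areas. Area L4 had the highest and R4 the lowest sum among the tumour areas, as for Epas1, but R2, R3 and R5 were ordered differently. The fibroblast and pericyte, leukocyte and urothelium sums were also highest in L4 and lowest in R4, so this match is not particular to endothelial markers. Relative to the normal mean the endothelial sum was 70.0% to 92.2% and Epas1 53.5% to 65.8%. The markers did not move as one: of 8 tested, 4 were lower, 3 higher and 1 not called. Ptprb fell from 467 to 199.8 CPM and Ehd3 from 262 to 151 CPM, and Pecam1 fell by 0.87 on the log2 scale. Mmrn2, Esam and Plvap rose by 0.47, 0.41 and 0.30 on the log2 scale, the calls of Esam and Plvap being lost with areas of the letter R only (edgeR adjusted p = 0.0583 and 0.0591). Cdh5 did not pass (0.05 ± 0.11), with a log2 fold change of -0.06 without tumour area L4, but was called higher by library size alone (0.35). The defining endothelial markers Robo4 and Sox17 were listed at 0 in every library. The summed CPM of 16 proximal tubule markers was 33823 to 35995 in the normal and 8902 to 17339 in the tumour areas. That of 13 markers of the Ksp-expressing distal tubule and collecting duct was 11939 to 12113 against 2560.4 to 7985, lowest in R2, and Pvalb among them was listed at 0. Of the 11 tested markers of this list 8 were lower and 3 not called. Among the 3 was Cdh16, whose promoter drives Cre, at 1147 CPM in the normal and 979 CPM in the tumour areas (-0.23, edgeR adjusted p = 0.0543). Cdh16 did pass in 7 of 21 alternatives, 3 of them without 1 tumour area (L4, R3 or R4; -0.14 without L4), and had a log2 fold change of 0.06 by library size alone. Kidney tubule markers were thus present in every area, as the labelled tissue implies. The part of these shifts in the results for the members was not tested.

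Markers of other cells also differed. The summed CPM of 15 leukocyte markers was 134 to 158 in the normal and 1547 to 3593 in the tumour areas, with Ptprc listed at 0. That of 11 fibroblast and pericyte markers was 1693 to 1914 against 2200.3 to 4950.3. Of these 8 were higher, among them the collagen gene Col1a1 (log2 fold change 3.27), and 3 lower. The lower ones were the receptor genes Pdgfra (-1.68) and Pdgfrb (-0.65, not called by library size alone) and Nt5e (-1.66). The summed CPM of 13 markers of dividing cells was 19.4 to 24.2 against 122 to 181. Fat cell markers (8 genes) summed to 2181 CPM in L4 and 589 in R5, against 44.3 to 110.2 in the other tumour areas and 47.8 to 110.1 in the normal areas. Urothelium markers (10 genes, Krt14 at 0) summed to 1253 in L4 and 258 in R5, against 53.7 to 121 in the other tumour areas and 0.997 to 7.36 in the normal areas. L4 and R5 were also the tumour areas with the most Vhl and the least Hif3a. Without both, the edgeR log2 fold changes were -0.98 for Vhl, -1.17 for Hif1a, -0.80 for Epas1 and 1.37 for Hif3a, each as large as or larger than with them. Since these areas lay nearest to the normal levels of Vhl, Hif1a and Hif3a, larger differences of these genes without them follow from leaving them out. The part of the fat cell and urothelium markers in the results for the members was not tested.

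Subunits of the VHL ligase and the enzymes that work with it did not share one direction. Of 12 listed genes 7 were tested, 2 were higher and 4 lower, with a median log2 fold change of -0.28 against 0.06 over all tested genes. The shares over all tested genes were 39.3% higher and 35.3% lower. Elob, the elongin that binds elongin C in the ligase, rose from 88.8 ± 5.79 to 129 ± 4.16 CPM (log2 fold change 0.53 ± 0.05). Rbx1, the RING subunit, fell from 212 ± 8.59 to 173 ± 4.20 CPM (-0.29 ± 0.05). Of the ubiquitin-conjugating enzymes, Ube2d1 rose by 0.39 and Ube2d3 fell by 0.34 on the log2 scale. Dcun1d1, which promotes the attachment of NEDD8 to cullins, fell from 177 ± 9.74 to 109 ± 9.53 CPM (-0.70 ± 0.07). Cand1, the exchange factor of cullin ligases, fell by 0.28 on the log2 scale. Vbp1, a chaperone subunit that binds VHL, did not pass (-0.06 ± 0.06). The cullin Cul2 and Eloc, the elongin C that VHL itself binds, were listed at 0 in every library and give no value. Scaled by library size alone, which moved the median of all genes by 0.29, only Dcun1d1 of the 4 stayed lower, and the log2 fold changes were -0.00 for Rbx1, -0.05 for Ube2d3 and 0.01 for Cand1.

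The hydroxylases that mark HIF alpha proteins were all 5 tested, and 3 were higher and 1 lower, beside 39.3% and 35.3% of all tested genes. Egln3, an oxygen sensor that HIF itself induces, rose the most. It was measured at 47.8 to 54.3 CPM in the normal and 396 to 590 CPM in the tumour areas, a log2 fold change of 3.26 ± 0.12 (edgeR adjusted p = 2.41e-08). Egln1, the main oxygen sensor and also a HIF target, rose from 508 ± 11.2 to 698 ± 64.7 CPM (0.46 ± 0.07). Egln2 did not pass (24.5 ± 1.11 and 26.4 ± 0.779 CPM, 0.11 ± 0.07). Hif1an, which hydroxylates an asparagine and so blocks co-activator binding, fell from 353 ± 4.27 to 187 ± 13.8 CPM (-0.92 ± 0.06). P4htm, a membrane-bound prolyl hydroxylase, rose from 1.70 ± 0.619 to 3.09 ± 0.655 CPM (0.88 ± 0.28), on few counts. Its call was lost without normal area L2 (edgeR adjusted p = 0.0538), without tumour areas L4 and R5 (0.66, edgeR adjusted p = 0.0668) and with areas of the letter R only (0.42, edgeR adjusted p = 0.274).

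Of 16 listed partners and co-regulators of HIF alpha, 9 were tested, 3 were higher and 6 lower (median log2 fold change -0.55). For all tested genes the shares were 39.3% higher and 35.3% lower. Arnt, the obligate partner, had 13 counts over all libraries and was not tested. Arnt2, its paralog, fell from 370.1 ± 12 to 253 ± 42.8 CPM (-0.55 ± 0.11). The acetyltransferase co-activator Ep300 fell from 362 ± 11.9 to 209 ± 9.44 CPM (-0.79 ± 0.05), and its paralog Crebbp fell by 0.20 on the log2 scale. Scaled by library size alone, Crebbp had a log2 fold change of 0.09. The co-activators Ncoa1 and Ncoa2 fell from 51.8 ± 4.77 to 16.1 ± 2.80 CPM and from 36.8 ± 3.91 to 4.86 ± 1.41 CPM. The deacetylase Hdac1 fell from 11.9 ± 0.734 to 2.53 ± 0.895 CPM (-2.20 ± 0.22). The 3 that rose were Ruvbl2 (0.99 ± 0.21), Kat5 (0.53 ± 0.07) and Tcf25 (0.48 ± 0.05).

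Of 27 other genes that act on the turnover or translation of HIF alpha, 15 were tested, 6 were higher and 6 lower (median -0.03). Such counts are near the shares over all tested genes, 39.3% higher and 35.3% lower. Without normal area R2 the higher calls of this list numbered 3. Ireb2, an iron-regulatory protein, fell from 615 ± 16.2 to 261 ± 28.9 CPM (-1.24 ± 0.08). Aco1, the other iron-regulatory protein and the one known to hold back translation of Epas1 mRNA, did not pass (657 ± 18.8 and 639 ± 107 CPM). The deubiquitinases Usp20 and Usp33, both known to bind VHL, fell by 1.33 and 1.69 on the log2 scale. The chaperone gene Hsp90aa1, whose product stabilises HIF1A, fell from 85.3 ± 3.49 to 36.1 ± 4.19 CPM (-1.24 ± 0.08). Hsp90ab1 fell by 0.28 on the log2 scale, and by library size alone its log2 fold change was 0.01. The kinase Gsk3b fell by 0.71 on the log2 scale. Eif4ebp1, a repressor of cap-dependent translation, rose from 20.3 ± 2.24 to 79.1 ± 27.0 CPM (1.96 ± 0.23). Stub1, a ubiquitin ligase for HIF1A, rose by 0.57 on the log2 scale.

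**Figure D4:**
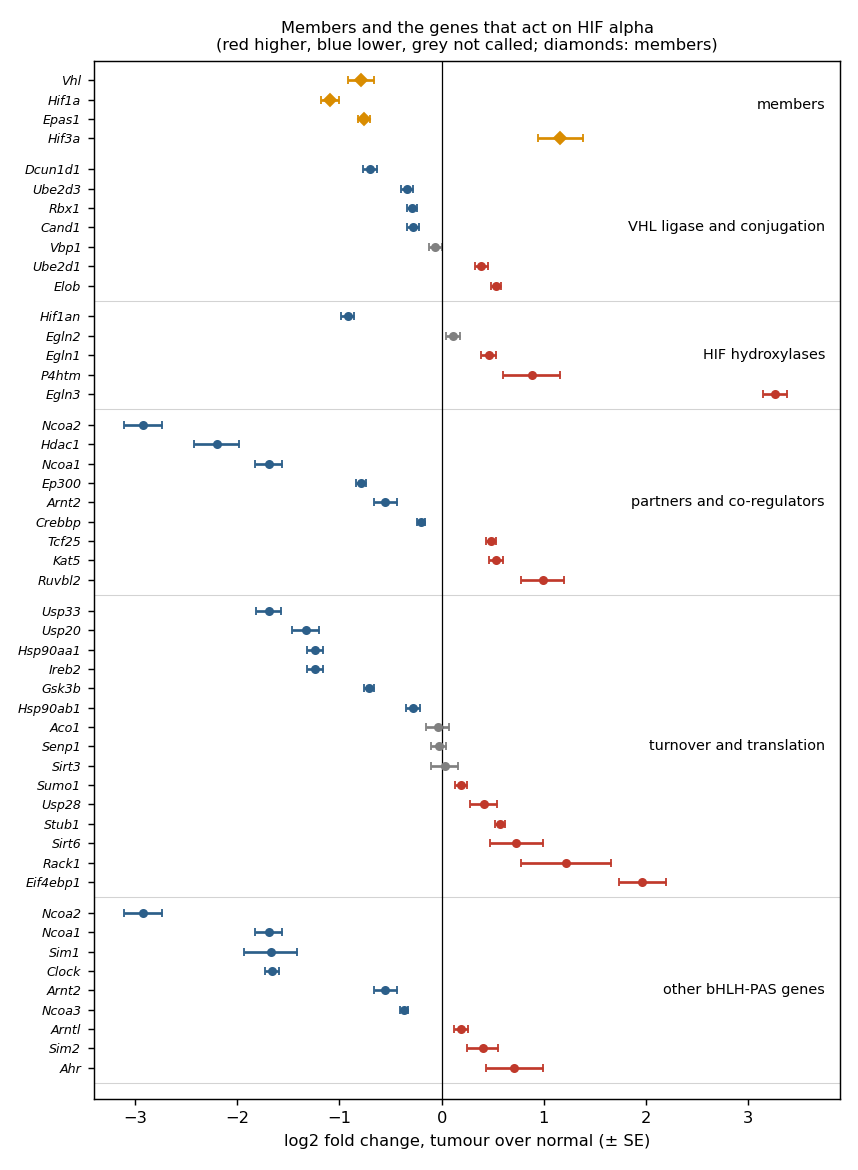
The edgeR log2 fold change (tumour over normal, bars ± SE) of the 4 members (diamonds) and of every tested gene of 5 lists (red called higher, blue called lower, grey not called). Egln3 at 3.26 and Ncoa2 at -2.92 are the extremes, and Ncoa1, Ncoa2 and Arnt2 appear in 2 lists.

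HIF alpha proteins belong to the bHLH-PAS family, transcription factors that work in pairs. Of 16 other genes listed with this family and its co-activators, 9 were tested, 3 were higher and 6 lower. Ncoa1, Ncoa2 and Arnt2 among them were already counted above. All tested genes were 39.3% higher and 35.3% lower. Sim1 fell from 100.1 ± 7.43 to 31.5 ± 12.8 CPM (-1.67 ± 0.26), and Clock, a circadian regulator, from 454 ± 22.4 to 144 ± 14.0 CPM (-1.66 ± 0.07). Ncoa3 fell by 0.37 on the log2 scale. Ahr, the receptor for dioxin, rose by 0.71 and Sim2 by 0.40. Among the tumour areas Ahr ran from 39.2 to 99.9 CPM, and without tumour area L4 its log2 fold change was 0.35 (edgeR adjusted p = 0.00162). The call of Ahr was lost without any 1 of the normal areas L1, L2, R1 or R2 (edgeR adjusted p 0.0666 to 0.0984). That of Sim2 was lost without tumour area R2, R3 or R4 or normal area R1 or R2 (edgeR adjusted p 0.0501 to 0.117). Higher calls in this list numbered 0 to 3 when 1 area was left out.

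Genes that HIF alpha proteins induce were described by 3 lists, of targets that prefer HIF1A, targets that prefer EPAS1 and targets of both. Of 28 listed HIF1A-preferring targets 11 were tested, and 9 were higher and 2 lower (median log2 fold change 1.09). Over all tested genes 39.3% were higher and 35.3% lower, with a median of 0.06. Hk2, the inducible hexokinase, rose by 4.42 on the log2 scale, and Pfkl, a phosphofructokinase, rose from 67.1 ± 2.59 to 355 ± 43.0 CPM (2.40 ± 0.09). Slc16a3, a lactate exporter, was at 0 to 0.202 CPM in the normal and 5.99 to 12.5 CPM in the tumour areas. The 2 lower genes were Ak4, a mitochondrial adenylate kinase, from 3204 ± 69.6 to 707 ± 154 CPM (-2.18 ± 0.15), and Hk1, another hexokinase, from 81.7 ± 2.39 to 62.3 ± 7.35 CPM (-0.39 ± 0.08). Of the listed genes without a test, 6 were at 0, 4 had too few counts and the rest were not among the genes counted. Whether the calls in this list are tied to the Hif1a transcript, at 47.1% of its normal level, was not tested.

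Of 22 listed EPAS1-preferring targets 14 were tested, and 5 were higher and 8 lower (median -0.40). All tested genes were 39.3% higher and 35.3% lower (median 0.06), so the 5 of 14 higher calls are near the general share. The 8 of 14 lower calls are above the general share, and lower calls of this list numbered 6 to 8 over the alternatives. Lox, which cross-links collagen, rose from 2.63 ± 0.709 to 31.0 ± 10.5 CPM (3.54 ± 0.31). Mmp14, a membrane-bound protease, rose from 26.5 ± 2.89 to 135 ± 53.3 CPM (2.36 ± 0.28). Tek, the endothelial receptor of angiopoietins, fell from 19.6 ± 1.98 to 5.76 ± 1.11 CPM (-1.77 ± 0.16). Igfbp3 fell by 1.77 and Sod2, the mitochondrial superoxide dismutase, by 1.22 on the log2 scale. Tek is an endothelial gene, and the endothelial markers given above moved in both directions.

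Of 22 listed targets of both factors 12 were tested, and 7 were higher and 1 lower (median 0.61). They include Egln3 and Egln1, described above with the hydroxylases. Among all tested genes 39.3% were higher and 35.3% lower, and the median was 0.06. Nos2, the inducible nitric oxide synthase, rose from 0.976 ± 0.295 to 4.34 ± 1.08 CPM (2.10 ± 0.28), and Trf, the iron carrier transferrin, from 4.06 ± 0.978 to 14.0 ± 5.77 CPM (1.78 ± 0.31). Hmox1 did not pass (0.09 ± 0.05). Higd1a was the 1 lower gene (-0.19 ± 0.07), with groups that overlapped and a call lost in 10 of 21 alternatives. The targets Vegfa and Slc2a1 were listed at 0 in every library and give no value.

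**Figure D5:**
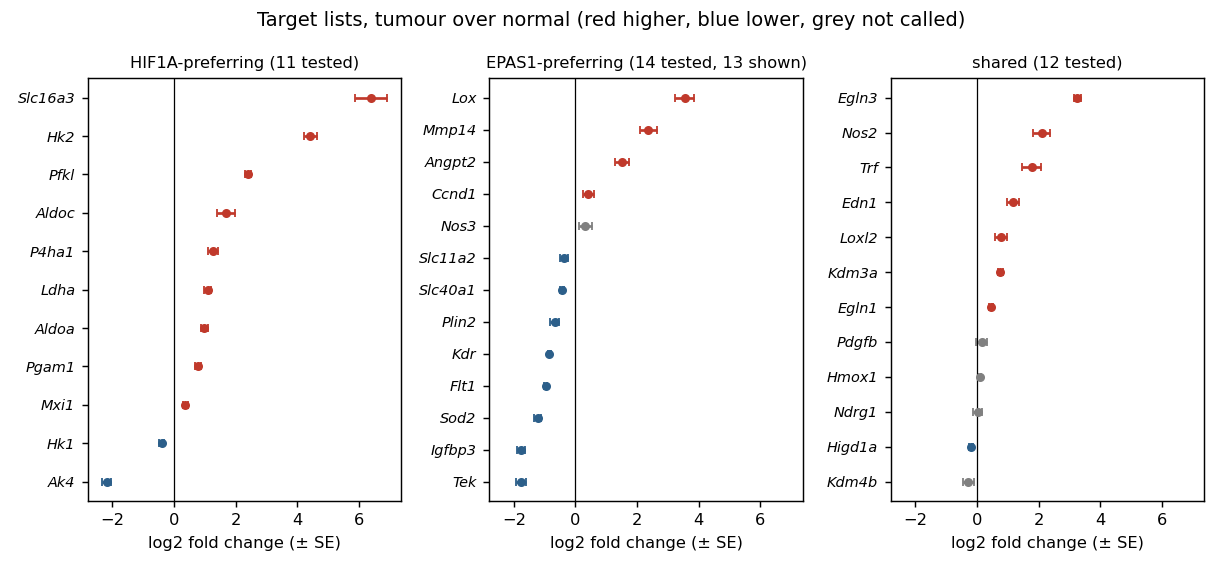
The edgeR log2 fold change (tumour over normal, bars ± SE) of the tested genes of the 3 target lists, with 13 of the 14 EPAS1-preferring genes drawn (red called higher, blue called lower, grey not called). Of the HIF1A-preferring genes 9 of 11 were higher, of the EPAS1-preferring genes 5 of 14, and of the shared genes 7 of 12. Over all tested genes 39.3% were higher and 35.3% lower.

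Genes whose profile over the 9 libraries was closest to each member were found from the root mean square difference of log2 CPM after centring each gene on its mean. Since the groups differ in most genes, this measure mainly picks genes with a like group difference. Closest to Vhl were Cd55 (0.091), Tacc1 (0.096) and Pdk4 (0.100). Closest to Hif1a were Fam91a1 (0.072), Plscr4 (0.080) and Cdk7 (0.103). Closest to Epas1 were Mbd1 (0.042), Pitpnm3 (0.060) and Smim14 (0.065). Closest to Hif3a were Tnip1 (0.103), P4ha1 (0.128) and Rnf145 (0.147). P4ha1, a collagen prolyl hydroxylase and listed HIF1A-preferring target, was at 51.5 (L4), 87.1 (R2), 61.2 (R3), 63.2 (R4) and 52.0 (R5) CPM among tumour areas. Its highest tumour area was R2, as for Hif3a, Tnip1 (4.36 CPM) and Rnf145 (898 CPM). A shared highest area follows largely from picking these genes by their profile. Among the members themselves the distance was 0.162 between Vhl and Epas1, 0.168 between Vhl and Hif1a, and 0.213 between Hif1a and Epas1. Many other genes lay closer. For Vhl, 54 tested genes were closer than Epas1 and 65 closer than Hif1a. For Hif1a, 102 were closer than Vhl and 280 closer than Epas1. For Epas1, 347 were closer than Vhl and 750 closer than Hif1a. Hif3a lay 0.985 to 1.166 from the other 3.

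Promoters were read because HIF binds a short core, ACGTG or GCGTG, and the members moved in both directions. RefSeq promoter sequence (build GRCm38.p6) was at hand for 3 of the members, and the 250 bases before the start of transcription were searched on both strands. Of 32851 such windows over all genes, 38.6% held at least 1 match, 16.7% at least 2 and 6.58% at least 3. Hif1a had 3 matches, 2 of which overlap as the palindrome CACGTG, Hif3a had 2 and Vhl had 0. The windows of Hif1a (chr12:73907617-73907866, plus strand) and Hif3a (chr7:17062428-17062677, minus strand) are given 5′ to 3′ in the direction of the gene, with matches in capitals.
Hif1a: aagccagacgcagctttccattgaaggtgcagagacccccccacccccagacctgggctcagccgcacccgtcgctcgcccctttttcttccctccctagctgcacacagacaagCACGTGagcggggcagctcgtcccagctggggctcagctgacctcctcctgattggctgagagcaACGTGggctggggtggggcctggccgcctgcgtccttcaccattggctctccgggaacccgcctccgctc
Hif3a: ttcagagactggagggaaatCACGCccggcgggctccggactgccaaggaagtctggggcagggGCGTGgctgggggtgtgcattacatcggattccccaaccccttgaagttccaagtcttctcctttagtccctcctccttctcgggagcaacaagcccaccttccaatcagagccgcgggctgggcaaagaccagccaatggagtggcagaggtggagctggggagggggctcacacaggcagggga
Matches were thus found for Hif1a, which fell, and Hif3a, which rose, but not for Vhl, which also fell. A link between matches and direction was not tested. A match describes these letters, not a bound site.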

How the data were processed

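RNA of the 9 areas was selected for poly(A), made into unstranded TruSeq libraries and read as 50-base pairs on a HiSeq 2500, per the labels' protocols. STAR 2.3, HTSeq, edgeR and the build mm9 are named in the submitters' processing notes, without the annotation or the counting options. The authors deposited 1 table of counts, whole numbers of reads for each gene with no normalization, and each library has its own column. Of 14052 identifiers 14026 matched a symbol, and 3989 genes (28.4%) had no count anywhere. Members are genes named by symbol. Members and gene lists were chosen with earlier results of these data known, and the lists come from general knowledge of the pathway.

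Genes were kept by filterByExpr (minimum count 10, minimum total 15), scaled by TMM (factors 1.037 to 1.167 for tumour areas, 0.89 to 0.899 for normal areas) and tested with edgeR 4.0.16 (quasi-likelihood, group as the only term, R 4.3.3). The common biological coefficient of variation was 0.152. A gene at 0 in 1 library could hold up to 3 counts there, 0.364 to 0.583 CPM before TMM scaling, a limit for counting error only. Ratios used a prior of 0.5 counts. Alternatives used RLE, upper quartile and library-size scaling, other filters, DESeq2 1.42.0, limma-voom (limma 3.58.1), edgeR's exact test, a robust version of the fit, the letter of the area as a covariate, areas with the letter R alone, each area left out, and L4 and R5 left out. The fit and the permutation test were first tested on simulated data.

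Named are the 4 members, genes of the pathway lists, at most 3 called genes per direction of each target list whose higher group averages 1 CPM or more, listed genes needed to say they did not pass, and the 3 nearest profiles of each member. Gapdh and Pgk1, given as genes at 0, are among the listed targets. The hydroxylation pattern was read from GENCODE M21 coding sequence, in place of the RefSeq proteins first planned. Coordinates are GRCm38, not the mm9 of the counts, and serve only for these sequences. 1 gene of the EPAS1-preferring list counts in that list's totals but is not reported here.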

Additional observations from a re-analysis of the deposited data

How the results depend on the processing

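All 4 members kept their direction and call in all 21 alternatives: the log2 fold change ran from -0.98 to -0.49 for Vhl, -1.17 to -0.79 for Hif1a, -0.83 to -0.46 for Epas1 and 0.95 to 1.45 for Hif3a. Library size alone gave the smallest decreases, and raised the share of higher calls over all genes from 52.7% to 68.9%. With only areas of the letter R (4 against 2), no ratio could pass and the differences were -0.24 (Hif1a to Vhl), 2.13 (Hif3a to Vhl), 0.27 (Epas1 to Hif1a), 2.37 (Hif3a to Hif1a) and 2.10 (Hif3a to Epas1). Leaving out 1 area gave -0.32 to -0.25 for Hif1a to Vhl, 0.26 to 0.38 for Epas1 to Hif1a, and -0.03 to 0.11 for Epas1 to Vhl, which was -0.03 without tumour area R2. Among named genes, signs turned by library size alone for Vbp1 (0.23), Aco1 (0.24), Cand1 (0.01), Crebbp (0.09), Hsp90ab1 (0.01) and Higd1a (0.10), and by upper quartile factors for Vbp1 (0.01) and Aco1 (0.02). Aco1 also turned with areas of the letter R only (0.03), without tumour areas L4 and R5 (0.08), and without L4 (0.06) or R2 (0.00) alone, and lay between -0.11 and 0.06 whichever single area was left out. With library size alone, Egln2 (0.40), Hmox1 (0.39), Cdh5 (0.35), Vbp1 and Aco1 were called higher and Ncoa3, Hk1, Cd55 and Pdk4 were no longer called. Hmox1 was also called with upper quartile factors (0.16). Calls counted as lower in the ligase list fell from 4 to 1 there, and the higher calls of the bHLH-PAS list ran from 0 to 3 over the alternatives. Cdh16 turned by library size alone (0.06), and Cdh5 turned with areas of the letter R only (-0.06), without L4 and R5 (-0.06) and without L4 (-0.06). The spread without tumour area R2 was computed after seeing the data. For the turning results the cause was not tested. No paired analysis was possible, since no label pairs a tumour area with a normal area. The groups differ in genotype and strain, and the area name R2, found in both, marks no pair. Depth limits Hif3a most, at 64 to 312 counts per library.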
